A study of Mus musculus castaneus and Mus musculus domesticus and Mus musculus with 11 samples.

Results

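Imprinted genes, which are expressed mainly from the copy inherited from 1 parent, were followed in motor neurons differentiated from mouse stem cells. A list of 39 such genes was matched by symbol and mouse Ensembl ID to the 27071 rows of the read matrix. A row was found for 36, and Kcnq1ot1, Airn and Slc38a4 were not analysed here. The filter on low counts kept 34 of the 36 for testing, among 14839 genes in all, and left out Phlda2 and Ascl2.

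The study compared the transcriptional identity of motor neurons from lines used to examine variation in neurite growth. Polyadenylated RNA was sequenced from 3 libraries of a hybrid line from a cross of CAST with 129, called the hybrid here. It was also sequenced from 3 libraries of CAST/EiJ, a wild-derived strain of the castaneus subspecies, called CAST here, and 3 of 129S6/SvEv, a laboratory strain, called 129 here. The labels name no edit, transgene or treatment in any of the 3 groups. The labels do not state the age of the cultures, the number of clones behind a line, or which strain was the mother of the hybrid. The matrix sums the reads of both parental copies, so no value given here is the expression of a single allele.

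Genomic imprinting is set in the germ line, where DNA methylation laid down in egg or sperm marks control regions that are kept in the embryo. Each control region governs a cluster of neighbouring genes, and a cluster often holds genes expressed from the paternal copy beside non-coding RNAs expressed from the maternal copy, or the reverse. Many imprinted genes regulate fetal growth, and a group of them, Ube3a, Snrpn, Nnat, Peg3 and Grb10 among them, is known for roles in neurons. Some are imprinted in particular tissues or isoforms only, and Grb10 is known to switch from the maternal copy in most tissues to the paternal copy in neurons.

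Total counts per library ran from 7763077 to 18167577. CAST 1 and hybrid 2 stood apart, since long transcripts were relatively scarce in them. A regression of each library's relative expression on exon length, both in log2, had a slope of −0.70 in CAST 1, −0.65 in hybrid 2, −0.19 in hybrid 3 and 0.16 to 0.34 in the other 6 libraries. All 14 neuron and motor neuron markers were detected in at least 1 library, among them Isl1, Chat and Slc18a3. The lowest of them, Lhx3 and Mnx1, ran from 0 to 2.13 CPM (counts scaled to a common library size) and from 0.495 to 4.88 CPM. The summed level of the 14 was 2631 to 6340 CPM in the hybrid and 3341 to 10557 CPM in CAST. In 129 it was 2424 to 6596 CPM. All 16 fibroblast and mesenchyme markers were detected as well, at summed levels of 2319 to 26565 CPM in the hybrid, 6204 to 7714 CPM in CAST and 5211 to 24049 CPM in 129. Summed pluripotency markers stayed between 1.94 and 13.5 CPM, summed endoderm and trophoblast markers between 72.8 and 400.5 CPM, and summed muscle markers between 17.0 and 268.1 CPM, with Myf5 at 0 in every library. The pluripotency sum covers 6 of 8 listed markers, since no row was found for Nanog and Dppa5a. No neuronal marker passed the test of edgeR in any comparison, either by its adjusted or by its unadjusted p, and DESeq2 and limma-voom called none. In hybrid against 129, edgeR called Myh3, 1 of 7 tested muscle markers, at −2.81 on the log2 scale (adjusted p = 0.0106). It also called Foxa2, 1 of 7 tested endoderm and trophoblast markers, at 1.58 (adjusted p = 0.0309). In that comparison 7.02% of all tested genes passed. Foxa2 was the 1 marker of its 7 with a positive value, and 0 of the 7 muscle markers had one. In bulk RNA, fewer cells of a type and less RNA per cell cannot be told apart.

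Of the 34 tested genes, 6 passed the threshold (adjusted p under 0.05 in edgeR's quasi-likelihood test) in at least 1 comparison and 28 passed in none. Igf2 and Grb10 were lower in the hybrid than in 129, while Rtl1 and Snrpn were higher. Against CAST, the hybrid had higher Rtl1 and lower Zdbf2. The row of Gnas was lower too, at −3.65 on the log2 scale, but stood at −0.33 (adjusted p = 0.898) once a row that shares its exons was added to it. With the rows that share its own exons added, Rtl1 passed neither against 129 (1.79, adjusted p = 0.0685) nor against CAST (1.65, adjusted p = 0.103). Between the parents, Igf2 alone passed, at a lower level in CAST than in 129. The 4 comparisons share libraries, so their results are set side by side and are not independent of each other.

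The number of members that passed was small and is read against the share of all tested genes that did, not as a property of imprinted genes. In hybrid against 129, 4 of 34 passed, where 7.02% of all tested genes did; 2 were higher (background 5.41%) and 2 were lower (background 1.6%). In hybrid against CAST, 3 of 34 passed, against 6% of all tested genes; 1 was higher (4.41%) and 2 were lower (1.6%), and with exon-sharing rows added Zdbf2 was the 1 member that still passed. In CAST against 129, 1 of 34 passed, against 0.917%; 0 were higher (0.391%) and 1 was lower (0.526%). Against the midparent, the mean of CAST and 129 on the log2 scale, 4 of 34 passed, against 7.34%, with 2 higher (5.88%) and 2 lower (1.46%). The libraries of the compared lines did not overlap for 18 of 34 members in hybrid against 129, for 6 of 34 in hybrid against CAST and for 14 of 34 in CAST against 129, where the shares over all tested genes were 37.5%, 19.2% and 28.6%. The median log2 fold change of the members was −0.40 in hybrid against 129, −0.06 in hybrid against CAST and 0.10 in CAST against 129, beside 0.02, −0.08 and 0.06 over all tested genes.

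**Figure D1:**
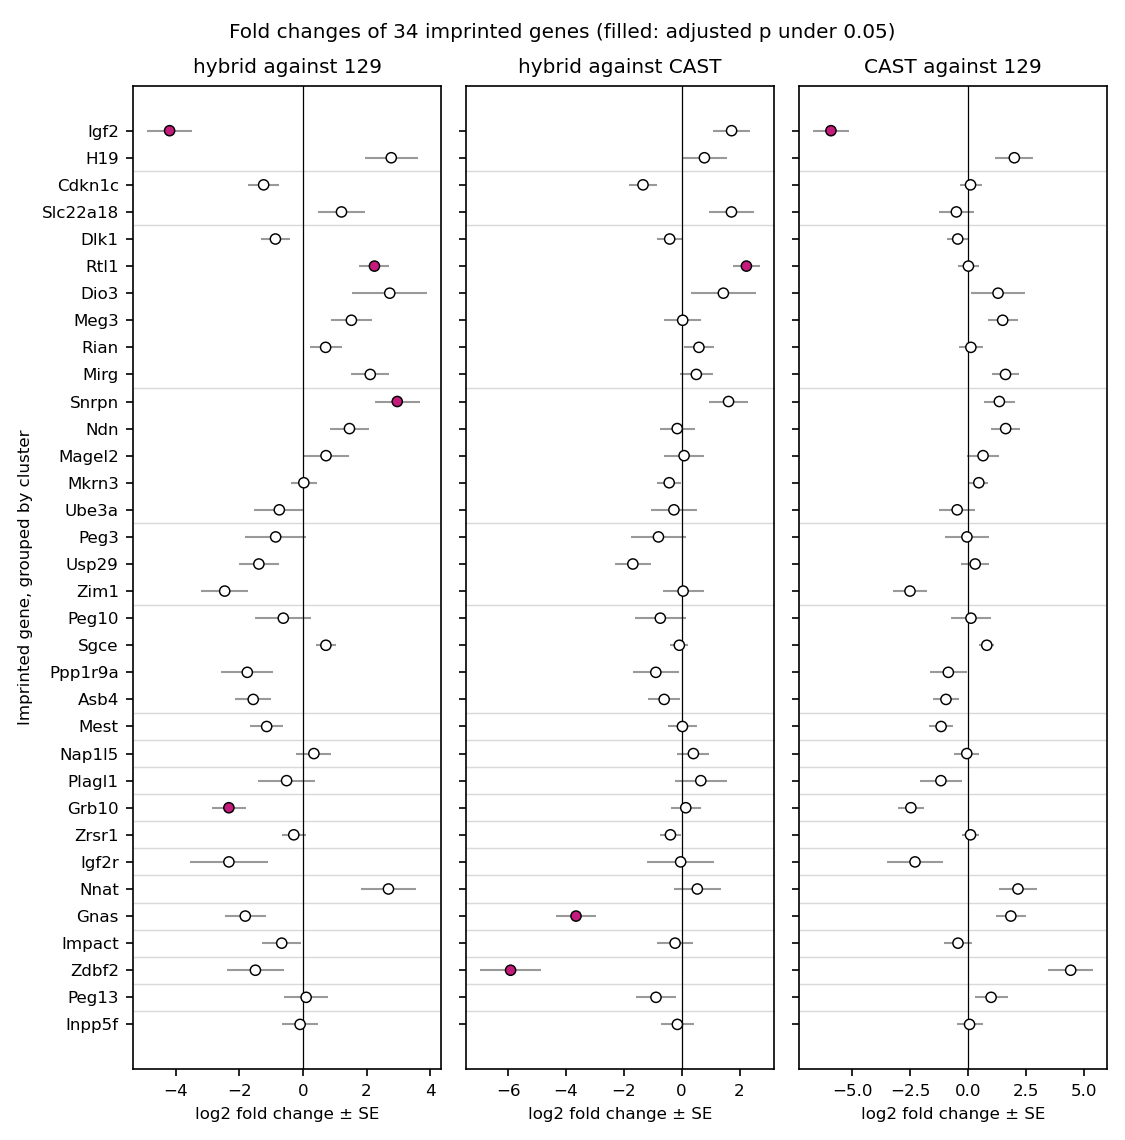
Log2 fold change with its standard error, derived from the F statistic of the test (x axis), of each of the 34 tested imprinted genes (y axis, grouped by cluster). Panels are hybrid against 129, hybrid against CAST and CAST against 129, and filled points passed the threshold. Igf2 lies at −4.19 in hybrid against 129 and at −5.91 in CAST against 129, and Zdbf2 and Gnas lie at −5.91 and −3.65 in hybrid against CAST.

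Imprinted clusters are dense with overlapping transcripts, and this bears on what a row of the matrix counts. In the GENCODE annotation of GRCm38, 14 of the 34 tested genes share exonic bases with a gene on the opposite strand, 9 share some with a gene on the same strand and 17 share none. For 12 of them the other gene has a row of its own in the matrix. The clearest case is Gnas, which shares 13.1% of its exonic bases with Gm20721 on the opposite strand. Gm20721 had 29515, 38046 and 45034 counts in the hybrid libraries, against 36, 28 and 20 in CAST and 13, 5 and 10 in 129. Opposite H19, the small RNA genes Gm27786 and Gm27483 together had 552, 1682 and 616 counts in the hybrid, against 5, 3 and 1 in CAST and 4, 0 and 1 in 129. Within Rian exons, on the same strand, the row Gm24895 had 209, 85 and 319 counts in the hybrid and 0 in all 6 parental libraries. The 6 rows opposite Rtl1 went the other way, as these microRNA genes had 6, 2 and 1 summed counts in the hybrid, against 4, 94 and 38 in CAST and 16, 52 and 39 in 129.

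The bases that these rows share with imprinted exons are given here because they are where a read could be given to either row. Sequences come from GENCODE transcripts and the GRCm38 assembly and read 5′ to 3′ on the strand of the named gene. Capitals mark bases inside exons of the imprinted gene, on either strand, and lower case marks bases outside them. The first pair gives the second exon of Gm20721 (chr2:174345990-174346057, minus strand) and the same bases read on the plus strand as Gnas exon. The next pair lies opposite H19, at chr7:142577849-142577918 and chr7:142576853-142576923 on the plus strand. Mir433 (chr12:109591715-109591838), Mir431 (chr12:109590447-109590537) and Mir434 (chr12:109594506-109594599) are on the plus strand, opposite the exon of Rtl1. Gm24895 (chr12:109646129-109646202, plus strand) lies wholly inside Rian exons, and Mir3072 (chr12:109747878-109747960, plus strand) has 58 of its 83 bases inside Mirg exons.
Gm20721 exon 2: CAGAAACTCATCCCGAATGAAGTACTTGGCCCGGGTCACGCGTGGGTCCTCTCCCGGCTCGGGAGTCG
Gnas, same bases: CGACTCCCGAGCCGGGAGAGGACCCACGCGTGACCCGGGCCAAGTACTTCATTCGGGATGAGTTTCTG
Gm27786: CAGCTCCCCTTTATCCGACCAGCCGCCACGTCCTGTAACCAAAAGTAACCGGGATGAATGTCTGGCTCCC
Gm27483: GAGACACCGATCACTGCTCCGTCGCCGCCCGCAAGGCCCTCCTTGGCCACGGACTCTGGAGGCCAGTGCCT
Mir433: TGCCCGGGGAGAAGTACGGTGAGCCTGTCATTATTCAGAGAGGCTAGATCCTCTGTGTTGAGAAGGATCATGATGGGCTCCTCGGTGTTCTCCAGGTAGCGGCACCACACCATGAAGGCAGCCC
Mir431: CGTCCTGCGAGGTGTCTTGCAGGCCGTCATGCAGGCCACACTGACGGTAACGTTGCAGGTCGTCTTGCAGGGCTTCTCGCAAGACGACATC
Mir434: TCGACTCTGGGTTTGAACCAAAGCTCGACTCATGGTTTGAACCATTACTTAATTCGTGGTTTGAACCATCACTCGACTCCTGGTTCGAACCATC
Gm24895: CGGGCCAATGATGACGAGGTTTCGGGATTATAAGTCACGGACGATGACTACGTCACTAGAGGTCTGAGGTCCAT
Mir3072: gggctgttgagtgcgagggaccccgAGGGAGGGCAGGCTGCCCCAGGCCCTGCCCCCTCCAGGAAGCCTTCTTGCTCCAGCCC

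A like difference between the hybrid and the parental libraries appeared across the matrix. Rows that the annotation calls antisense genes held 0.0686%, 0.0529% and 0.0713% of the counts in the hybrid libraries, against 0.00243% to 0.00276% in CAST and 0.00231% to 0.00248% in 129. Of the 527 genes that passed the threshold at a higher level in the hybrid than in both parental lines, 56.4% share exonic bases with a gene on the opposite strand, beside 20.7% of all 14830 tested genes with coordinates. Among the 131 genes lower in the hybrid than in both, the share was 35.9%, and among the 136 genes that passed in CAST against 129 it was 14.7%. Sharing on the same strand was also more frequent, at 32.8% of the 527 higher genes and 20.6% of the 131 lower genes, beside 6.55% of all tested genes and 6.62% of those that passed in CAST against 129. Whether the hybrid libraries were made or counted with another strand setting or annotation is not given in the sources used here, and its part in the hybrid comparisons was not tested for genes other than those summed with their overlapping rows. Comparisons of CAST with 129 do not use the hybrid libraries' counts, apart from the shared filter, scaling and estimate of the spread.

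**Figure D2:**
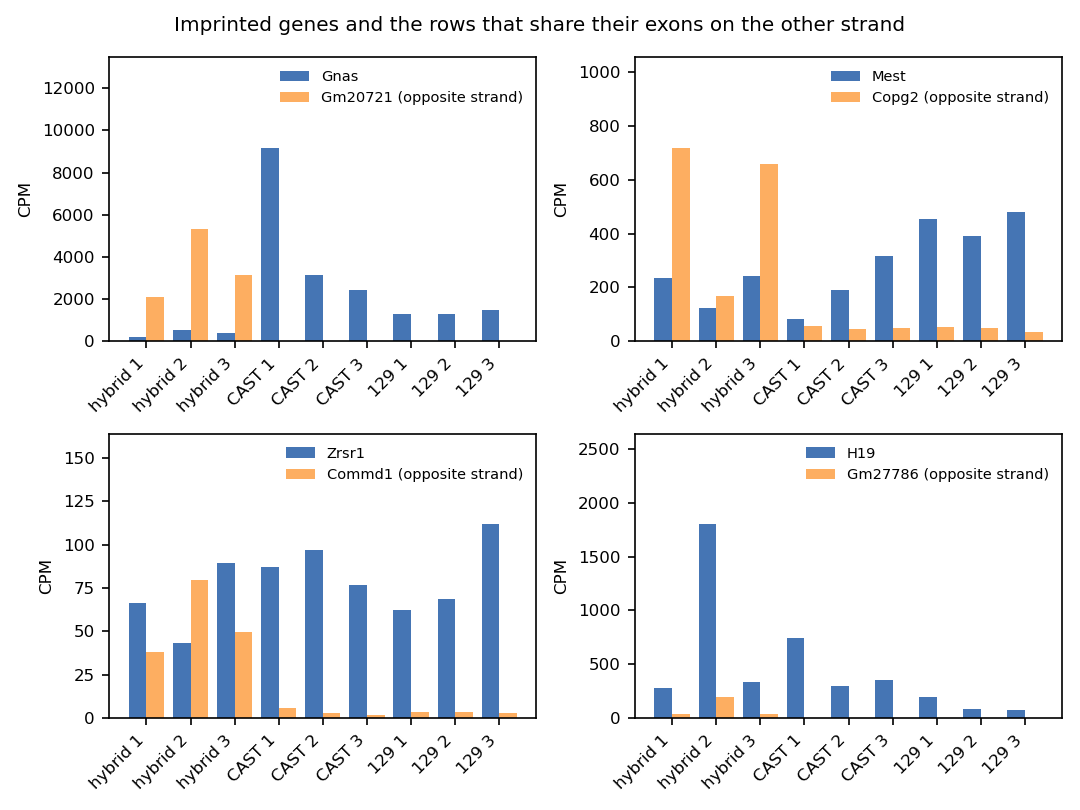
Level in CPM (y axis, from 0) of Gnas, Mest, Zrsr1 and H19 (blue) and of a row that shares their exons on the opposite strand (orange) in each of the 9 libraries (x axis). Orange bars reach 2088 to 5316 CPM for Gm20721 in the 3 hybrid libraries and at most 3.72 CPM in the 6 parental libraries.

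The levels of imprinted genes spanned several orders of magnitude per length of exon. Nnat was the highest at a mean of 505 CPM per kb of exon over the 9 libraries, followed by Nap1l5, Peg10, Gnas, H19, Snrpn, Ndn and Peg3. The median of the 36 genes with a row was 14.8 CPM per kb. Phlda2, Slc22a18, Ascl2 and Dio3 stayed under 1 CPM per kb. The 2 genes left out of the tests, Phlda2, which limits placental growth, and Ascl2, a factor of trophoblast and intestinal stem cells, had 24 and 49 counts over all 9 libraries.

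**Figure D3:**
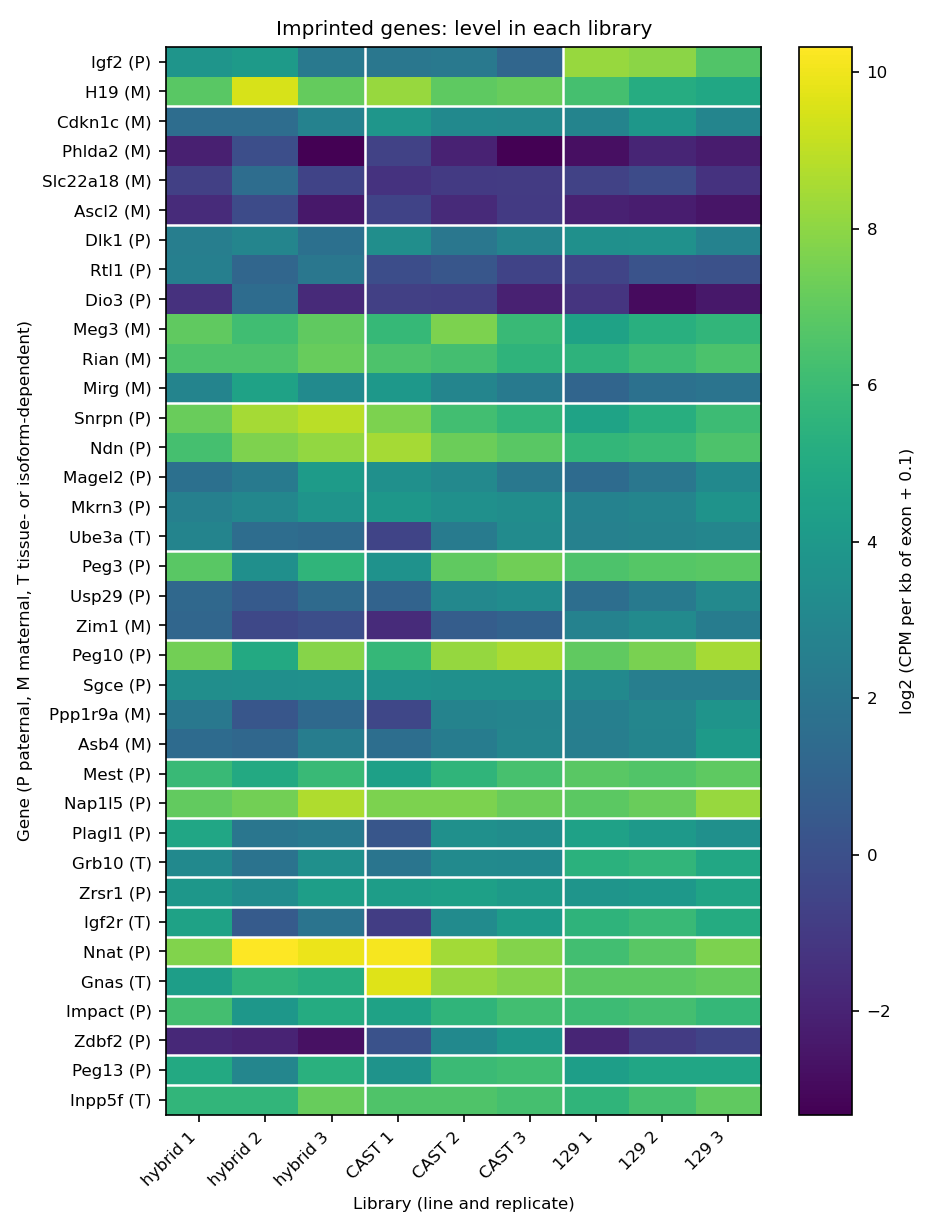
Level of each of the 36 imprinted genes with a row (y axis, grouped by cluster, with the parental copy known to be expressed) in each library (x axis), as log2 of CPM per kb of exon plus 0.1. Igf2 is brighter in the 129 libraries than in the other 6, Rtl1 is brighter in the hybrid libraries, and Zdbf2 is brighter in CAST than elsewhere.

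In the Igf2-H19 cluster, the means of the 2 neighbouring genes lay on opposite sides of those in 129. Igf2, the paternally expressed fetal growth factor (chr7:142650766-142666816, minus strand), was far lower in both the hybrid and CAST than in 129. H19, the maternally expressed non-coding RNA next to it, had higher means in the hybrid and CAST than in 129 and did not pass the threshold.

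Igf2 reached 77.7, 99.1 and 25.9 CPM in the hybrid libraries, 23.7, 25.3 and 12.2 CPM in CAST and 1701, 1437 and 555 CPM in 129. All 6 hybrid and CAST libraries lay below the lowest 129 library, and every hybrid library lay above every CAST library. The mean was 67.5 ± 37.6 CPM in the hybrid, 20.4 ± 7.17 CPM in CAST and 1231 ± 600 CPM in 129 (SD, n = 3 each). The log2 fold change was −4.19 ± 0.70 (SE) in hybrid against 129 (adjusted p = 0.00658, edgeR's quasi-likelihood test) and −5.91 ± 0.76 in CAST against 129 (adjusted p = 0.00994). In hybrid against CAST it was 1.72 ± 0.63 and did not pass (adjusted p = 0.198), nor did it pass against the midparent, at −1.23 ± 0.56 (adjusted p = 0.286). The difference of the hybrid from 129 passed under all 18 alternative settings, with adjusted p between 2.09e-10 and 0.0238. The difference of CAST from 129 was lost without CAST 2 (adjusted p = 0.0684) and kept under the other 17. Without CAST 1 and hybrid 2 together, the values were −4.57 in hybrid against 129 and −6.09 in CAST against 129.

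Igf2 is also made by mesenchyme, and its order over the libraries was that of the summed fibroblast markers in 129 only. Their summed level was 26565, 16683 and 2319 CPM in the hybrid, 7038, 6204 and 7714 CPM in CAST and 24049, 18902 and 5211 CPM in 129. In the hybrid and in 129, library 3 was the lowest for both Igf2 and the marker sum. The highest hybrid library was 2 for Igf2 and 1 for the sum. In CAST, library 3 was the lowest for Igf2 and the highest for the sum. The part of such cells in the difference of Igf2 was not tested. None of the 16 fibroblast markers passed by edgeR in the 3 comparisons between lines, with 1, 5 and 4 under an unadjusted p of 0.05 in hybrid against 129, hybrid against CAST and CAST against 129, where 22.2%, 15.8% and 14.6% of all tested genes were. DESeq2 called 0, 4 and 4, against 12.8%, 9.78% and 5.19% of all tested genes, and limma-voom called none. In the annotation 62.8% of the exonic bases of Igf2 are also exons of Gm49394 on the same strand, which has no row in the matrix used here.

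H19 (chr7:142575529-142578143, minus strand) is the host of a microRNA. It reached 279, 1800 and 331 CPM in the hybrid, 744, 299 and 355 CPM in CAST and 196, 86.7 and 69.2 CPM in 129. Every hybrid and CAST library lay above every 129 library, and hybrid 2 and CAST 1 were the highest of their lines. The log2 fold change was 2.78 ± 0.84 in hybrid against 129 (adjusted p = 0.0916), 1.99 ± 0.81 in CAST against 129 (adjusted p = 0.306) and 0.79 ± 0.79 in hybrid against CAST (adjusted p = 0.757). With CAST 1 and hybrid 2 left out, the hybrid value against 129 was 1.38 (adjusted p = 0.105), and with the 2 opposite-strand rows and the same-strand Mir675 added it was 2.96 (adjusted p = 0.0753).

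Grb10 and Igf2r, both partners of the growth factor axis, had means below those of 129 in both other lines. Grb10 (chr11:11930508-12038683, minus strand) encodes an adaptor that restrains insulin and IGF receptor signalling. It reached 81.2, 32.8 and 105.5 CPM in the hybrid, 34.9, 84.3 and 80.0 CPM in CAST and 384, 458 and 259 CPM in 129. The hybrid and CAST ranges overlapped and both lay below all 129 libraries. The mean was 73.2 ± 37.0 CPM in the hybrid, 66.4 ± 27.4 CPM in CAST and 367 ± 101 CPM in 129 (SD, n = 3 each). Grb10 fell by 2.33 ± 0.54 on the log2 scale in hybrid against 129 (adjusted p = 0.0319). In CAST against 129 the value was −2.47 ± 0.54 and just missed the threshold (adjusted p = 0.077), which it passed with CAST 1 and hybrid 2 both left out (adjusted p = 0.0334) and in DESeq2 (adjusted p = 0.000273). Grb10 shares no exonic bases with another annotated gene.

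The call of Grb10 in hybrid against 129 held in direction throughout and was lost in 7 of 18 alternatives. Without 129 1, 129 2 or 129 3 the adjusted p was 0.0836, 0.124 and 0.0609, and without hybrid 1, hybrid 2 or hybrid 3 it was 0.0662, 0.0786 and 0.055. With the replicate number as a block it was 0.111.

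Igf2r, whose product clears IGF2 from the cell surface, reached 212, 13.1 and 34 CPM in the hybrid, 4.23, 87.1 and 175 CPM in CAST and 431, 562 and 308 CPM in 129. Every 129 library was above the other 6, and the lowest values were in CAST 1 and hybrid 2. The log2 fold change was −2.32 ± 1.23 in hybrid against 129 (adjusted p = 0.286) and −2.29 ± 1.22 in CAST against 129 (adjusted p = 0.402), and neither passed. Of 11 other genes of the IGF axis, 0 passed in any comparison by edgeR, DESeq2 or limma-voom, with 1, 2 and 2 under an unadjusted p of 0.05 in hybrid against 129, hybrid against CAST and CAST against 129 (22.2%, 15.8% and 14.6% of all tested genes). Its most abundant members, the binding proteins Igfbp5 and Igfbp2, averaged 687 and 424 CPM in the hybrid, 1009 and 645 CPM in CAST and 1321 and 253 CPM in 129.

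In the Dlk1-Dio3 cluster, Rtl1 was the only one of 6 tested genes to pass the threshold, and it was higher in the hybrid than in both parental lines. Rtl1 (chr12:109589193-109600330, minus strand) is a paternally expressed gene derived from a retrotransposon, needed in mice for the placenta. It reached 36.8, 13.7 and 26.3 CPM in the hybrid, 5.37, 7.24 and 3.66 CPM in CAST and 3.72, 6.40 and 6.03 CPM in 129. The lowest hybrid library was above all 6 parental libraries, and the parental ranges overlapped. The mean was 25.6 ± 11.6 CPM in the hybrid, 5.42 ± 1.79 CPM in CAST and 5.39 ± 1.45 CPM in 129 (SD, n = 3 each). Rtl1 rose by 2.25 ± 0.47 on the log2 scale against 129 (adjusted p = 0.0187), by 2.24 ± 0.47 against CAST (adjusted p = 0.0206) and by 2.24 ± 0.37 against the midparent (adjusted p = 0.00454). In CAST against 129 the value was 0.01 ± 0.45 (adjusted p = 0.999).

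The microRNA genes on the opposite strand of Rtl1 are processed from the maternal transcript and in mice direct cleavage of the Rtl1 RNA. With the rows that share its exons added, Rtl1 was 1.79 higher on the log2 scale against 129 (adjusted p = 0.0685) and 1.65 higher against CAST (adjusted p = 0.103), and neither passed. Against the midparent Rtl1 passed under all 17 alternatives, with values of 1.72 to 2.57. The added rows cover 8.1% of its exonic bases on the opposite strand and 1.3% on the same strand. Reads from the opposite strand over its other exonic bases were not checked. Their part in the rise of Rtl1 was not tested. The call against 129 was lost without 129 1, 129 2 or 129 3 (adjusted p = 0.0836, 0.0773 and 0.077), without hybrid 1 or hybrid 3 (0.0532 and 0.0573) and with the replicate block (0.0862). The call against CAST was lost without CAST 1 or CAST 3 (adjusted p = 0.0514 and 0.0893), without hybrid 1 or hybrid 3 (0.0664 and 0.0563), with the replicate block (0.0908) and with the 2 lines fitted alone (0.0635).

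The maternally expressed non-coding RNAs of the cluster, Meg3, Rian and Mirg, had higher means in the hybrid than in 129. None passed with the main settings. Meg3 passed in hybrid against 129 with an offset for exon length. Mirg passed there without CAST 1, without hybrid 1, without CAST 1 and hybrid 2 together and in DESeq2. Mirg, a host of microRNAs, reached 51.7, 168 and 66.8 CPM in the hybrid, 114, 53.8 and 33.5 CPM in CAST and 15.2, 23.8 and 26.9 CPM in 129, where the 129 range lay below both others. Its log2 fold change was 2.12 ± 0.60 in hybrid against 129 (adjusted p = 0.0699), the lowest adjusted p among members that did not pass there. Meg3 averaged 1956 ± 579 CPM in the hybrid, 1909 ± 1482 CPM in CAST and 680 ± 249 CPM in 129. Rian, a host of small nucleolar RNAs, averaged 1967 ± 513 CPM in the hybrid, 1302 ± 410 CPM in CAST and 1199 ± 393 CPM in 129. Of the paternally expressed genes, the Delta-like protein gene Dlk1 averaged 30.7 ± 11.8, 40.9 ± 17.8 and 55.8 ± 15.8 CPM in the hybrid, CAST and 129. Dio3, which inactivates thyroid hormone, averaged 2.14 ± 2.86, 0.758 ± 0.410 and 0.300 ± 0.323 CPM in the hybrid, CAST and 129.

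**Figure D4:**
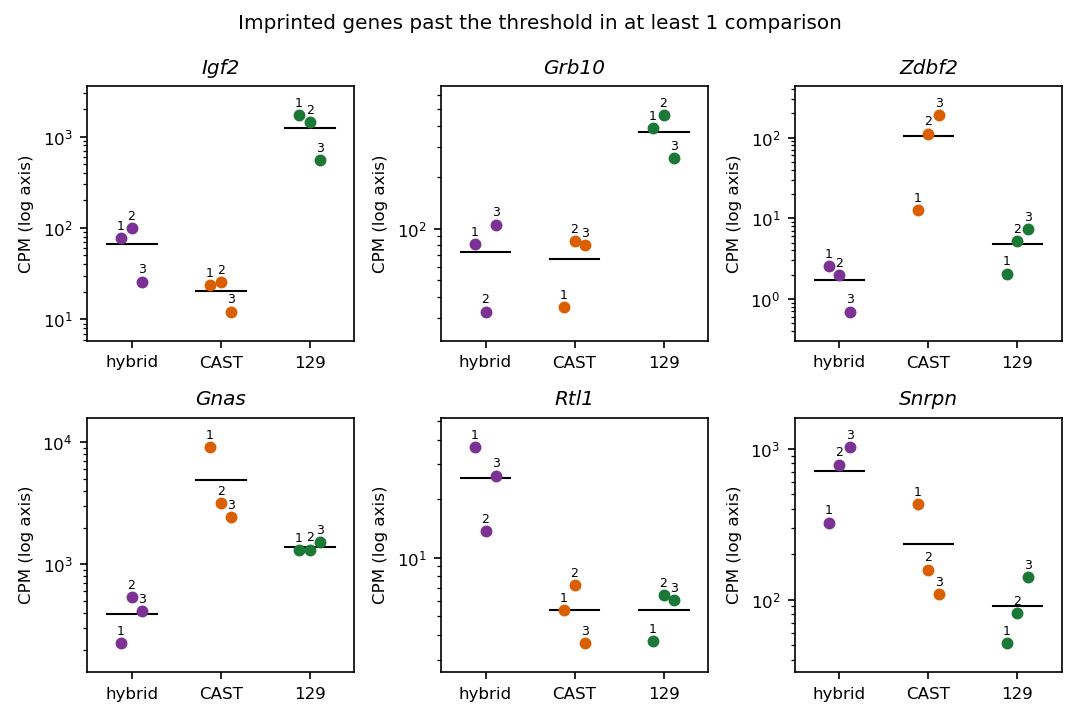
Level in CPM (y axis, log scale) of the 6 imprinted genes past the threshold in at least 1 comparison, in the hybrid, CAST and 129 (x axis); points are libraries with their replicate number and lines are means. Igf2 and Grb10 have all 129 libraries above the other 6, Rtl1 has all hybrid libraries above the other 6, and Gnas and Zdbf2 have all hybrid libraries below all CAST libraries.

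In the Prader-Willi cluster on chromosome 7, Snrpn was higher in the hybrid than in 129 and the other 4 tested genes did not pass. Snrpn (chr7:59982495-60140219, minus strand) is paternally expressed and encodes SmN, a spliceosomal protein abundant in neurons. It reached 324, 785 and 1028 CPM in the hybrid, 429, 157 and 109 CPM in CAST and 51.5, 81.5 and 141 CPM in 129. All hybrid libraries lay above all 129 libraries, and CAST 1 lay inside the hybrid range. The mean was 712 ± 358 CPM in the hybrid, 232 ± 172 CPM in CAST and 91.2 ± 45.3 CPM in 129 (SD, n = 3 each). Snrpn rose by 2.97 ± 0.70 on the log2 scale against 129 (adjusted p = 0.0345) and by 2.29 ± 0.54 against the midparent (adjusted p = 0.0319). It did not pass in hybrid against CAST, at 1.62 ± 0.67 (adjusted p = 0.269), or in CAST against 129, at 1.35 ± 0.66 (adjusted p = 0.377).

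Snrpn is a gene of neurons, and within each line its order over the libraries was that of the summed neuronal markers. That sum was 2631, 5590 and 6340 CPM in the hybrid, 10557, 4945 and 3341 CPM in CAST and 2424, 3902 and 6596 CPM in 129. Not every marker of the list had this order. Map2, Elavl3 and Elavl4 were lowest of their lines in CAST 1 and hybrid 2, the libraries poor in long transcripts. The part of the neuronal share in the difference of Snrpn was not tested. In the annotation 27.3% of its exonic bases are shared with genes on the same strand, Gm38393 and Snurf, which have no row here. The call against 129 was lost without 129 1, 129 2 or 129 3 (adjusted p = 0.126, 0.159 and 0.0729), without CAST 2 (0.0514), without hybrid 2 or hybrid 3 (0.0717 and 0.0971) and with the replicate block (0.111). Against the midparent it was lost without 129 1 or 129 2 (0.0735 and 0.0897), CAST 2 or CAST 3 (0.0774 and 0.0637), hybrid 2 or hybrid 3 (0.0851 and 0.127) and with the block (0.128). Without CAST 1 and hybrid 2 together it passed in both, at 2.91 (adjusted p = 0.0237) and 2.65 (adjusted p = 0.018).

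Ndn, the paternally expressed gene of the MAGE family protein necdin, reached 293, 764 and 1013 CPM in the hybrid, 1332, 557 and 414 CPM in CAST and 194, 223 and 333 CPM in 129. The hybrid range overlapped both parental ranges, and CAST lay above 129. Its log2 fold change was 1.46 ± 0.62 in hybrid against 129 (adjusted p = 0.208) and 1.62 ± 0.62 in CAST against 129 (adjusted p = 0.276). Magel2, a regulator of ubiquitin ligases, averaged 40.2, 38.0 and 24.3 CPM in the hybrid, CAST and 129. Mkrn3, a makorin ring-finger protein, averaged 22.9, 30.9 and 22.5 CPM, and Ube3a, the ubiquitin ligase that is maternally expressed in neurons, averaged 85.2, 103 and 142 CPM, in the same order of lines. None of the 3 passed in any comparison, and 27.3% of the exonic bases of Ube3a lie opposite exons of other genes.

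Gnas, the gene of the stimulatory G protein alpha subunit (chr2:174284320-174346744, plus strand), was lowest in the hybrid as counted. This did not hold once the counts of an overlapping row were added. As counted, Gnas reached 226, 535 and 414 CPM in the hybrid, 9168, 3165 and 2437 CPM in CAST and 1298, 1314 and 1510 CPM in 129. All hybrid libraries lay below all 129 libraries, which lay below all CAST libraries. The mean was 392 ± 155 CPM in the hybrid, 4923 ± 3694 CPM in CAST and 1374 ± 118 CPM in 129 (SD, n = 3 each). The row fell by 3.65 ± 0.70 on the log2 scale in hybrid against CAST (adjusted p = 0.0126) and fell by 2.73 ± 0.63 against the midparent (adjusted p = 0.0269). It did not pass in hybrid against 129, at −1.81 ± 0.65 (adjusted p = 0.15), or in CAST against 129, at 1.84 ± 0.65 (adjusted p = 0.244). Among the alternatives, the row passed in hybrid against 129 without CAST 1, without CAST 1 and hybrid 2 together and in DESeq2. DESeq2 also called it in CAST against 129.

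With Gm20721 added to Gnas, the sum was 2314, 5850 and 3560 CPM in the hybrid, 9171, 3167 and 2438 CPM in CAST and 1299, 1315 and 1511 CPM in 129. The hybrid then overlapped CAST and lay above 129. The log2 fold change became −0.33 in hybrid against CAST (adjusted p = 0.898), 0.59 against the midparent (adjusted p = 0.603) and 1.51 in hybrid against 129 (adjusted p = 0.226), and none passed. In the last 2 of these the direction turned. The 68 bases given for Gm20721 and Gnas are 1 stretch of this shared sequence. Adding a row counted almost wholly in the hybrid raises the hybrid sum by construction, and whether its reads came from Gnas transcripts was not tested. As counted, the call against CAST was also lost without hybrid 3 (adjusted p = 0.0535), with an offset for exon length (0.0531), with the replicate block (0.0787) and with the 2 lines fitted alone (0.0737). The call against the midparent was lost without 129 1, 129 2 or 129 3 (0.0515, 0.0624 and 0.0614), without hybrid 1, hybrid 2 or hybrid 3 (0.0729, 0.0514 and 0.0993), with the exon length offset (0.16) and with the block (0.118).

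Zdbf2 was lower in the hybrid than in CAST, and its highest levels were in CAST. Zdbf2 (chr1:63273265-63314576, plus strand) is a paternally expressed zinc-finger gene that in mice acts in the hypothalamus on growth. It reached 2.55, 1.96 and 0.699 CPM in the hybrid, 12.7, 112 and 188 CPM in CAST and 2.06, 5.24 and 7.30 CPM in 129. The CAST libraries lay above the other 6 and spread widely, with CAST 1 the lowest, and the hybrid and 129 ranges overlapped. The mean was 1.73 ± 0.944 CPM in the hybrid, 104 ± 88.1 CPM in CAST and 4.87 ± 2.64 CPM in 129 (SD, n = 3 each). Zdbf2 fell by 5.91 ± 1.05 on the log2 scale in hybrid against CAST (adjusted p = 0.00855) and fell by 3.70 ± 0.91 against the midparent (adjusted p = 0.0378). In CAST against 129 the value was 4.42 ± 0.96 and missed the threshold (adjusted p = 0.0745), and in hybrid against 129 it was −1.49 ± 0.90 (adjusted p = 0.337).

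The exons of Zdbf2 share 0.8% of their bases with the opposite-strand row Gm24513, which had 1 count in all. With that row added, the value against CAST was −5.89 (adjusted p = 0.00892). The call against CAST was kept in 17 of 18 alternatives and lost with the replicate block (adjusted p = 0.0535). CAST 1, the library poor in long transcripts, was low for this gene. Without it the difference of CAST from 129 passed at 4.94 (adjusted p = 0.0183), and without CAST 1 and hybrid 2 together the hybrid value against CAST was −6.50 (adjusted p = 0.00659). Against the midparent the call was lost without 129 2 or 129 3 (0.0685 and 0.0737), CAST 2 or CAST 3 (0.061 and 0.057), hybrid 1, hybrid 2 or hybrid 3 (0.064, 0.14 and 0.127), with the block (0.159) and in limma-voom (0.127).

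Nnat, the paternally expressed gene of neuronatin, a small membrane protein of neurons and endocrine cells, reached 396, 2340 and 1775 CPM in the hybrid, 2067, 624 and 411 CPM in CAST and 135, 206 and 358 CPM in 129. Every hybrid and CAST library lay above every 129 library, and the hybrid and CAST ranges overlapped. The log2 fold change was 2.69 ± 0.85 in hybrid against 129 (adjusted p = 0.106) and 2.15 ± 0.84 in CAST against 129 (adjusted p = 0.282), and neither passed. In hybrid against 129 Nnat passed without CAST 1, without hybrid 1 and in DESeq2. Nap1l5, of the nucleosome assembly protein family, reached 243, 317 and 771 CPM in the hybrid, 372, 364 and 269 CPM in CAST and 219, 274 and 554 CPM in 129, and its ranges overlapped among all lines. Its log2 fold changes of 0.35 ± 0.55 in hybrid against 129 and 0.40 ± 0.55 in hybrid against CAST did not pass (adjusted p = 0.701 and 0.84).

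The Peg3 and Peg10 clusters held abundant genes without a call in any comparison. Peg3, a paternally expressed zinc-finger gene, reached 1502, 144 and 636 CPM in the hybrid, 165, 1665 and 2155 CPM in CAST and 1211, 1430 and 1490 CPM in 129. Peg10, another gene derived from a retrotransposon, reached 1159, 207 and 1534 CPM in the hybrid, 360, 1914 and 2564 CPM in CAST and 839, 1262 and 2342 CPM in 129. In both genes hybrid 2 and CAST 1, the libraries poor in long transcripts, were the lowest of their line, and the ranges of the lines overlapped. The log2 fold change of Peg3 was −0.86 ± 0.96 in hybrid against 129 (adjusted p = 0.58), and that of Peg10 was −0.62 ± 0.87 (adjusted p = 0.666).

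Of their neighbours, Zim1, a maternally expressed zinc-finger gene, came nearest to the threshold. In hybrid against 129 it passed with the exon length offset, with the 2 lines fitted alone and in DESeq2. It also passed there without CAST 1, and without CAST 1 and hybrid 2 together. It averaged 10.1 ± 6.72 CPM in the hybrid, 9.77 ± 7.05 CPM in CAST and 55.8 ± 16.4 CPM in 129, with every 129 library above the other 6. Its log2 fold change was −2.46 ± 0.74 in hybrid against 129 (adjusted p = 0.091) and −2.51 ± 0.74 in CAST against 129 (adjusted p = 0.169). Usp29, a paternally expressed ubiquitin protease, averaged 37.3 ± 11.5, 120 ± 75.5 and 97.3 ± 49.5 CPM in the hybrid, CAST and 129. Sgce, which encodes epsilon-sarcoglycan, averaged 118 ± 4.70, 125 ± 7.25 and 71.4 ± 19.8 CPM in the hybrid, CAST and 129, and did not pass in hybrid against 129 at 0.72 ± 0.31 (adjusted p = 0.215). Ppp1r9a, the gene of the synaptic scaffold neurabin, averaged 38.5, 71.6 and 129 CPM in the hybrid, CAST and 129, and Asb4 averaged 13.5, 20.5 and 39.9 CPM in the same order of lines.

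Mest and Zrsr1 each lie within reach of a gene on the other strand whose row moved. Whether the hybrid counts in those rows came from transcripts of those genes was not tested. Mest, a paternally expressed gene of the hydrolase fold, shares 23.1% of its exonic bases with Copg2, and Zrsr1, a splicing-factor retrogene, shares 9.2% with Commd1, in whose intron it lies. Mest reached 236, 123 and 241 CPM in the hybrid, 83.4, 190 and 316 CPM in CAST and 453, 389 and 479 CPM in 129, with every 129 library above the other 6. Copg2, a coat protein gene, reached 717, 167 and 658 CPM in the hybrid, 58.7, 45 and 49.5 CPM in CAST and 52.8, 48.4 and 33.2 CPM in 129. Copg2 rose by 3.52 ± 0.57 on the log2 scale in hybrid against 129 (adjusted p = 0.0057). Commd1 rose by 4.10 ± 0.55 in hybrid against 129 (adjusted p = 0.00216), at 37.8, 79.8 and 49.5 CPM in the hybrid, 5.68, 3.03 and 1.51 CPM in CAST and 3.61, 3.54 and 2.59 CPM in 129. Mest itself had a log2 fold change of −1.14 ± 0.52 in hybrid against 129 (adjusted p = 0.231), which changed direction to 0.56 (adjusted p = 0.53) with Copg2 added. Zrsr1 had −0.29 ± 0.38 (adjusted p = 0.641), which changed direction to 0.54 (adjusted p = 0.351) with Commd1 added.

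The remaining members did not pass in any comparison with the main settings. Among the alternatives, Peg13 passed in CAST against 129 without CAST 1 and hybrid 2 together. Cdkn1c, the maternally expressed cell cycle inhibitor p57, averaged 8.36 ± 4.38 CPM in the hybrid, 21.2 ± 6.84 CPM in CAST and 19.7 ± 9.05 CPM in 129, and every hybrid library lay below every library of both parents. Its log2 fold change was −1.23 ± 0.48 in hybrid against 129 (adjusted p = 0.181) and −1.34 ± 0.49 in hybrid against CAST (adjusted p = 0.191), and 30.7% of its exonic bases lie opposite exons of Gm44732. Its neighbour Slc22a18, an organic cation transporter gene, stayed at 4.75 CPM or less in every library. Plagl1, a zinc-finger factor gene, averaged 93.4, 59.1 and 133 CPM in the hybrid, CAST and 129, and Impact, a regulator of the kinase GCN2, averaged 212, 249 and 337 CPM. In the same order of lines, the non-coding RNA Peg13 averaged 124, 230 and 116 CPM, and the inositol phosphatase gene Inpp5f averaged 668, 741 and 710 CPM.

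Grouped by the parental copy known to be expressed, the members were set beside the shares of all tested genes that passed, 7.02% in hybrid against 129, 6% in hybrid against CAST and 0.917% in CAST against 129. Of 20 tested paternally expressed genes, 3 passed in hybrid against 129 (Rtl1 and Snrpn higher, Igf2 lower), 2 passed in hybrid against CAST (Rtl1 higher, Zdbf2 lower) and 1 passed in CAST against 129 (Igf2 lower). Their median log2 fold change was −0.13, −0.12 and 0.21 in these 3 comparisons. In the same order, 7, 5 and 6 had an unadjusted p under 0.05, beside 22.2%, 15.8% and 14.6% of all tested genes. DESeq2 called 4, 3 and 2 (12.8%, 9.78% and 5.19% of all tested genes). For limma-voom the calls were 3, 2 and 1 (7.48%, 6.56% and 1.58%). Of 9 maternally expressed genes, 0 passed by edgeR in any of the 3, with 6, 2 and 4 under an unadjusted p of 0.05, where 22.2%, 15.8% and 14.6% of all tested genes were. DESeq2 called 3 in hybrid against 129 (H19 and Mirg higher, Zim1 lower), 0 in hybrid against CAST and 1 in CAST against 129 (Zim1 lower), beside 12.8%, 9.78% and 5.19% of all tested genes, and limma-voom called none. Their median was 0.71, 0.05 and 0.10. Of the 5 genes whose imprint depends on tissue or isoform, Grb10 passed in hybrid against 129 and Gnas in hybrid against CAST, both lower. Under an unadjusted p of 0.05 were 2, 1 and 2 of them, beside the same shares of all tested genes. DESeq2 called 2, 1 and 2, with Gnas and Grb10 in both comparisons with 129, and limma-voom called 1, 1 and 0. The difference between the paternal and the maternal group was not tested.

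No tested gene that sets or keeps imprints passed. Of 27 such genes listed, 25 had a row, and no row was found for Dnmt3b and Tdg. The filter left out Dppa3, Ctcfl and Nlrp2. Of 22 tested imprinting regulators, among them DNA methyltransferases, 0 passed by edgeR in any of the 4 comparisons, 0 had an unadjusted p under 0.05, and DESeq2 and limma-voom called none. The most abundant were Trim28, a corepressor that keeps imprints methylated, at 207 ± 15, 235 ± 50.5 and 182 ± 9.81 CPM in the hybrid, CAST and 129, and the histone methyltransferase gene Ehmt2, at 190 ± 28.1, 205 ± 38.1 and 144 ± 10.5 CPM. Their median log2 fold change was −0.34 in hybrid against 129, −0.05 in hybrid against CAST and −0.43 in CAST against 129.

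A further list of 48 imprinted genes outside the 39 had 34 tested members. By edgeR, 2 of these were higher in hybrid against 129, Copg2 and Commd1, beside 5.41% of all tested genes, and 1 was lower, Kcnk9, beside 1.6%. In hybrid against CAST and against the midparent, Copg2 and Commd1 were again higher (background 4.41% and 5.88%) and 0 were lower. Both share exons with Mest or Zrsr1 on the opposite strand. Whether a counting difference of the hybrid libraries had a part in their rise was not tested. In CAST against 129, Htr2a was the 1 gene that passed by edgeR, at a lower level (background 0.526%). There limma-voom called Htr2a and Pon3 lower, and DESeq2 called Ano1, Dcn, Htr2a, Kcnk9 and Pon3 lower. In hybrid against 129, DESeq2 added Herc3 and Htr2a and limma-voom added none. In hybrid against CAST, DESeq2 added Ano1, Dcn and Pon3 as higher, and limma-voom added none. Kcnk9, a maternally expressed potassium channel gene, reached 8.42, 6.01 and 16.4 CPM in the hybrid, 2.06, 13 and 11.7 CPM in CAST and 41.2, 71.5 and 138 CPM in 129, with a log2 fold change of −3.02 ± 0.74 in hybrid against 129 (adjusted p = 0.0403). Htr2a, a serotonin receptor gene, reached 0.723, 1.57 and 1.94 CPM in CAST and 9.34, 22.4 and 11.3 CPM in 129, and fell by 3.32 ± 0.59 (adjusted p = 0.0386).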

How the data were processed

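RNA-seq of 9 libraries was analysed, 3 each of the hybrid, CAST and 129. Of 11 samples in the labels, 2 CAST samples were not analysed here. Reads were aligned with STAR to mm10, per the submitters' processing notes. The STAR version, counting tool, annotation and strandedness were not given in the sources used here. Raw counts were deposited by the authors, whole numbers of reads per Ensembl gene with no normalization that the values show. Symbols, coordinates, exon lengths and exon overlaps came from the GENCODE annotation of GRCm38, the same assembly as mm10, and may differ from the annotation behind the counts. Genes were kept by filterByExpr (minimum count 10, minimum total 15, proportion 0.7), then TMM-scaled, and edgeR 4.0.16 (R 4.3.3) fitted its robust quasi-likelihood model with 3 groups in 1 fit and no covariate. Two-sided p-values were adjusted over 14839 genes by the Benjamini-Hochberg method, with a threshold of 0.05. The SE of a log2 fold change is its absolute value divided by the square root of the test's F statistic. It was not estimated by the model itself. Levels are CPM after TMM scaling, and those set between genes are per kb of exon. The scripts were tested on simulated counts.

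Alternatives were RLE size factors, no filter, the replicate number as a block, an exon length offset, leaving out libraries, fitting only the 2 lines compared, DESeq2 1.42.0 and limma-voom (limma 3.58.1). The number after the letter B in a column was taken as the label's replicate number. Of 9 same-number pairs, 2 had deviations correlated above 0.1 (range −0.718 to 0.494). This cannot decide on a pairing, as each line has 3 libraries and CAST 1 and hybrid 2 are poor in long transcripts. No pairing is stated in the labels, so the main fit used none and the block is an alternative. The labels do not say that libraries of a line are separate cultures, so the p-values rest only on the spread between these samples, which may be technical. Members, lists and tests were chosen with earlier results of these data known. Per-library values are given for members past the threshold and for the 8 with the highest CPM per kb, and those of Mirg, Igf2r and Mest were added after their values were seen.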

Additional observations from a re-analysis of the deposited data

How the results depend on the processing

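The number of imprinted genes past the threshold moved with the settings, as did the number over all genes. Totals are over the genes that each setting tested, which differ with the filter. DESeq2 was run on all rows, and over the 14839 genes its totals were 770 in CAST against 129 and 1901 in hybrid against 129. In CAST against 129 (1 gene) it was 2 with no filter on low counts, 3 with the exon length offset, 4 without both CAST 1 and hybrid 2, 5 in DESeq2 and 0 to 2 when 1 library was left out. Over all genes these were 136, 177, 263, 230, 782 and 26 to 157. In hybrid against 129 (4 genes) it was 1 with the replicate block and 6 with the exon length offset. It was 7 without both CAST 1 and hybrid 2, 9 in DESeq2 and 1 to 8 when 1 library was left out. Over all genes these were 1041, 561, 1090, 1467, 2080 and 522 to 1717. In hybrid against CAST (3 genes) it was 0 with the replicate block, 1 with only the 2 lines fitted, 1 with exon-sharing rows added and 1 to 3 when 1 library was left out. Over all genes these were 891, 526, 634, 881 and 643 to 923. Against the midparent (4 genes) it was 1 with the replicate block and 1 to 6 when 1 library was left out. Over all genes these were 1089, 776 and 884 to 1850. The calls left with the block were Igf2 in hybrid against 129 and in CAST against 129, where 6 genes in all passed, and Rtl1 against the midparent. Adding rows that share exons was chosen after seeing the data, and it reversed Gnas against the midparent to 0.587, since the added Gm20721 counts were almost all in the hybrid. Apart from that, the cause of these changes was not tested. Leaving out a library also removes 1 of 3 replicates. Depth limits Phlda2, Ascl2, Dio3 and Slc22a18, which had few counts per library.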
